A study of Mus musculus with 15 samples.

Results

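Transcripts of 8 genes that mark the mesothelium were measured in cultured mouse pancreatic stellate cells (PSC), the fibroblast-like cells of the pancreas, and alongside in pancreatic cancer cells. The genes were the uroplakin genes Upk3b and Upk1b, the transcription factor genes Bnc1 and Wt1, the surface antigen genes Msln and Muc16, and the membrane protein genes Lrrn4 and Gpm6a. They were taken by name: every probe that the array design lists under one of these 8 symbols was used. Of 56605 probes, 9 met this rule and covered 7 of the 8 genes. Muc16 had no probe under its own symbol. One probe whose transcript the design describes as mucin 16 is reported beside the others as Muc16, which gives 8 genes of 36995 gene names and 10 probes. The 8 genes were proposed from the contrast of PSC HT with PSC WT in these data, so their differences between those groups are a description and were not tested.

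PSC HT came from heterozygous mice and PSC WT from wild-type mice, and both were activated by 2 weeks in culture, with 3 arrays each. Cancer cells spent 24 h in medium conditioned by PSC HT, in medium conditioned by PSC WT or in control medium, with 3 arrays each, for 15 one-colour arrays in all. The labels used here name neither the heterozygous locus nor the cancer cell line. Nor do they say that the replicates of a group were independent animals or cultures; the p-values below cover the variation among the samples measured, and that variation may be technical.

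The mesothelium is the sheet of flat cells that covers the pancreas and other organs of the body cavity and lines its wall. It arises from mesoderm, yet its cells carry keratins and an apical surface with microvilli like an epithelium. In development and injury mesothelial cells can lose these features and become fibroblast-like, and in mouse liver they are a known source of stellate cells. Upk3b and Upk1b encode membrane proteins best known from the bladder lining, mesothelin (Msln) and mucin 16 (Muc16) bind each other on the cell surface, and Wt1 is a zinc finger regulator of mesothelial development.

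Start-site windows of 300 bases, from 250 before to 50 after a transcript start, were available for 5 of the 8 genes, in 6 windows (RefSeq sequence, build GRCm38.p6). The windows printed are those with a match to the motif marked in them, from genes that differed together between the PSC genotypes. The windows of Muc16, which differed too, and of the second Gpm6a start have no GGAATG and are not printed. In the windows of Upk3b (chr5:136038246-136038545, plus strand), Lrrn4 (chr2:132880813-132881112, minus strand) and the first start of Gpm6a (chr8:54779184-54779483, plus strand), capitals mark GGAATG or its reverse complement, the core letters bound by TEAD factors. In the window of Bnc1 (chr7:81992250-81992549, minus strand), capitals mark GGGCGG or its reverse complement, the GC box.
Upk3b: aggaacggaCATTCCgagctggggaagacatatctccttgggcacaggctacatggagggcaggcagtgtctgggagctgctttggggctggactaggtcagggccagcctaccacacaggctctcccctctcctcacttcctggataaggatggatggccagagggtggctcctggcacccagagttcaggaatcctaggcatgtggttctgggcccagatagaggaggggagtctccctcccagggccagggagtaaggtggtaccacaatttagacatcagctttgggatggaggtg
Lrrn4: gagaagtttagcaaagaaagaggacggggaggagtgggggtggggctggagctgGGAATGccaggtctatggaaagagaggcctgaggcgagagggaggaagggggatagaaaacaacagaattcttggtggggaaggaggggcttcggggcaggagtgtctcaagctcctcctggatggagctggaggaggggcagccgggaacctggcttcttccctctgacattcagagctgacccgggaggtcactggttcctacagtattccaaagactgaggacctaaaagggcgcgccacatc
Gpm6a: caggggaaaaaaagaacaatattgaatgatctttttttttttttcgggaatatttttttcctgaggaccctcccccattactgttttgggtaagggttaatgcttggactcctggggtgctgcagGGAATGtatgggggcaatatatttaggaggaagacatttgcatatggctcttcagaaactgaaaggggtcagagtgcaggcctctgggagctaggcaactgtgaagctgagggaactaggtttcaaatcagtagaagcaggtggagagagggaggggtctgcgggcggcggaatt
Bnc1: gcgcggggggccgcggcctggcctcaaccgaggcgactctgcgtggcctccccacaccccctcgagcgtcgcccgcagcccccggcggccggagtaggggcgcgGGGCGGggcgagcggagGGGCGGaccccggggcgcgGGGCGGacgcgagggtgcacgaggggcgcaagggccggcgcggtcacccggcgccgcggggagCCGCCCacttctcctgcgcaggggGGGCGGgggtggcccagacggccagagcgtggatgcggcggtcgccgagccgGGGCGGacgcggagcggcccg

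GGAATG occurred in 3 of the 6 windows, those printed for Upk3b, Lrrn4 and Gpm6a, and in 14.7% of all 32851 windows. GC content was 83.3% in Bnc1, where GGGCGG occurred 6 times, against a median of 52.7% over all windows, and 0.292% of windows had as much. In Upk3b, Lrrn4 and the first Gpm6a window GC content was 58.7%, 58% and 47%. The other 9 motifs were also searched on both strands. GGGCGG was in 2 windows (35.7% of all), AGGTCA in 2 (16.3%), CANNTG in 4 (72.3%) and TATAAA in 1 (13.6%). The letters GTGGGAG (9.73% of all), GCGGGGGCG (2.91%), AGATAA (11.2%), TGACGTCA (1.79%) and TGANTCA (7.81%) were in none of the 6. CANNTG, TGACGTCA and TGANTCA read the same on both strands, and none of the 10 motifs contains another. These matches describe letters and not bound sites.

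Values below are log2 signals relative to the array's own 75th percentile of signal, so that 0 is the level of the 75th percentile probe. They rank 1 probe over arrays and not genes against each other. The 75th percentile of signal was 913 to 1449 over the 15 arrays, 54.3% to 63.8% of spots were well above background and no spot was saturated. The spike-in slope given in the file headers was 0.91 to 0.93 in PSC WT and 0.90 on PSC HT 2. On PSC HT 1 it was 1.05 and on PSC HT 3 it was 1.06, as in cancer cells (1.05 to 1.06). The slope thus differed in part with genotype, and between PSC WT and cancer cells. What part it had in the differences below was not tested. Markers of activated stellate cells were present in both PSC groups. All 14 listed stellate and fibroblast genes were well above background on every PSC array, and Acta2, the contractile actin of activated stellate cells, read 7.44, 7.44 and 7.49 in PSC HT, against 7.23, 7.11 and 7.21 in PSC WT. One PSC array, PSC HT 3, stood apart by its reading of Cdh1, the cadherin of epithelial junctions, which was -2.45. Cdh1 lay between -8.22 and -7.61 on the remaining 5 PSC arrays and was well above background on none of them. Results that rest on PSC HT 3 are given with and without it.

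**Figure D1:**
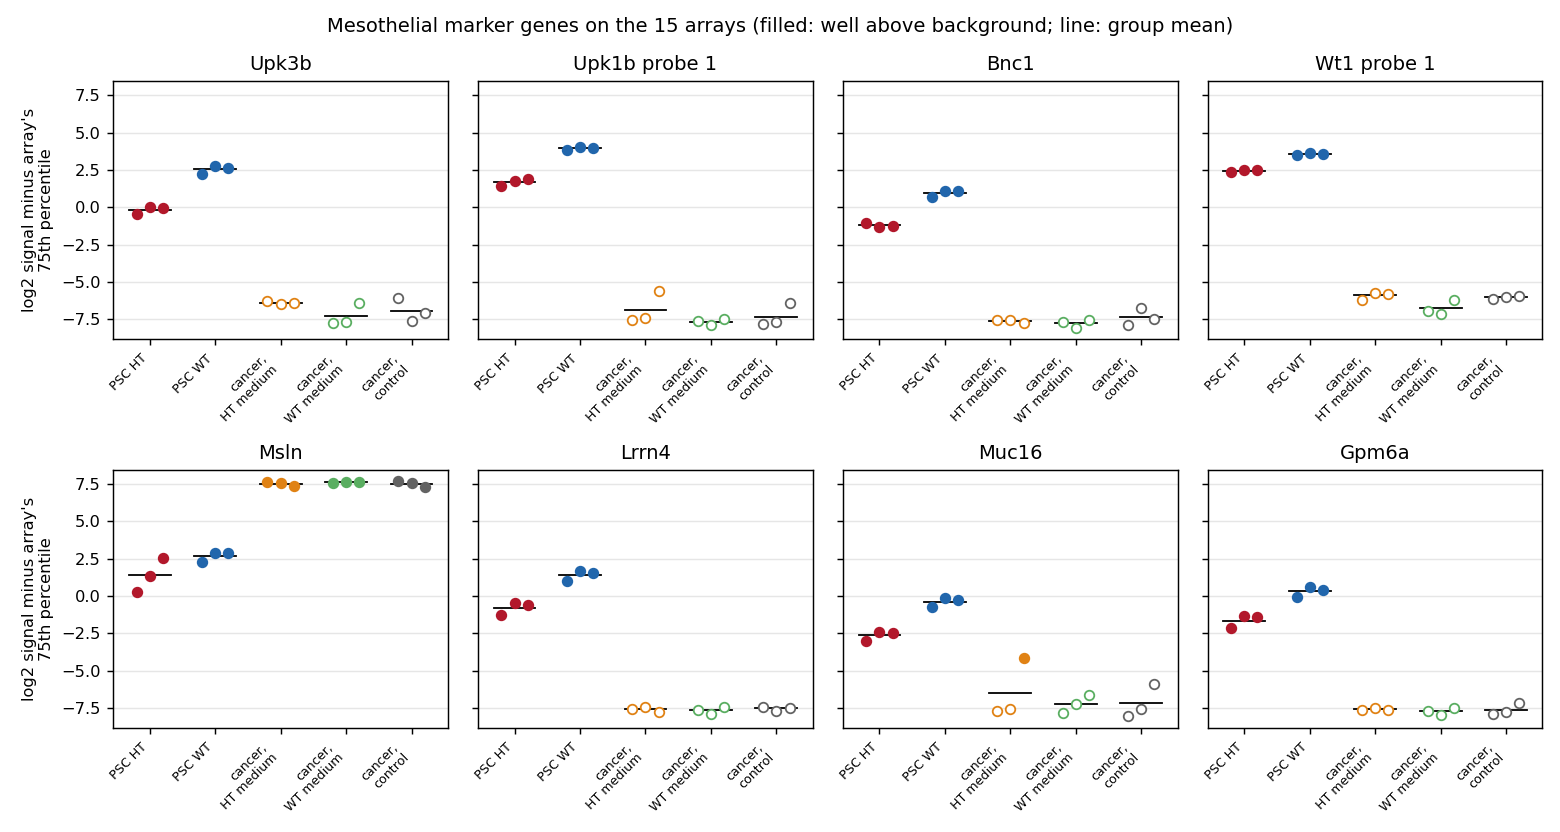
Each panel plots 1 gene on the 15 arrays, as log2 signal minus the array's 75th percentile, with a line at the mean of each group of 3 arrays and open points for readings not well above background. In all genes except Msln both PSC groups lie above the cancer cells. The distance is smallest in Muc16, with PSC HT at -2.99 to -2.39 and the highest cancer cell reading at -4.16. In Msln the order is the opposite. PSC HT points lie below PSC WT points except for the Msln point of PSC HT 3.

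All 8 genes averaged lower in PSC HT than in PSC WT, and all were well above background on every PSC array. Their log2 differences ran from -2.70 for Upk3b to -1.16 for Wt1, with a median of -2.19, against a median of -0.0029 over all 20851 genes tested. In 7 of the 8 genes every PSC HT array lay below every PSC WT array, as it did for 15% of all genes tested. Since this contrast proposed the genes, nothing is read from that count. In cultures measured in bulk, fewer cells of a type and less RNA per cell cannot be told apart.

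Of the uroplakins, Upk3b showed the largest difference of the 8 genes. It read -0.46, 0.01 and -0.04 in PSC HT, against 2.21, 2.74 and 2.65 in PSC WT. Its groups were separated by 2.20 log2 units between the highest PSC HT and the lowest PSC WT array, and PSC HT averaged 15.4% of the PSC WT signal (difference -2.70 ± 0.19, SE, n = 3 arrays each). The probe lies at chr5:136520522-136520581 (mm9, from the array files). Upk1b, a tetraspanin that pairs with uroplakin 3 proteins in the bladder, has 2 probes on chromosome 16 (mm9, 38773592 to 38773651 and 38773859 to 38773918). The brighter probe read 1.44, 1.79 and 1.87 in PSC HT, against 3.84, 4.02 and 3.96 in PSC WT, a difference of -2.24 ± 0.13 (SE, n = 3 arrays each). The other probe gave -2.38, and neither probe showed an overlap between the groups.

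The transcription factor genes differed by unlike amounts. Bnc1, basonuclin 1, a zinc finger protein of squamous epithelia, germ cells and mesothelium, read -1.08, -1.30 and -1.26 in PSC HT, against 0.70, 1.08 and 1.06 in PSC WT (difference -2.16 ± 0.13). Its probe lies at chr7:89111978-89112037 (mm9). Wt1 showed the smallest difference of the 8 and also the tightest replicates. Its brighter probe, at chr2:105013656-105013715 (mm9), read 2.33, 2.46 and 2.46 in PSC HT, against 3.52, 3.63 and 3.58 in PSC WT (difference -1.16 ± 0.08), so PSC HT retained 44.9% of the PSC WT signal. The second Wt1 probe, assigned to another transcript of the gene at chr2:104974028-104974087 (mm9), read -1.87, -1.75 and -1.76 in PSC HT, against -0.68, -0.16 and -0.17 in PSC WT, a difference of -1.46. Both Wt1 probes separated the groups without overlap.

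Muc16 and Msln encode binding partners on the mesothelial surface, and they behaved differently across the PSC HT arrays. The mucin 16 probe, at chr9:18299956-18300015 (mm9), read -2.99, -2.39 and -2.49 in PSC HT, against -0.73, -0.16 and -0.29 in PSC WT (difference -2.23 ± 0.21). Msln, probed at chr17:25885569-25885628 (mm9), read 0.24, 1.36 and 2.56 in PSC HT, against 2.25, 2.89 and 2.88 in PSC WT. Msln was the only 1 of the 8 whose groups overlapped: PSC HT 3 lay above PSC WT 1. The SD over PSC HT arrays was 1.16 for Msln and between 0.08 and 0.45 for the other 7. Its difference was -1.29 ± 0.56 with all arrays and -1.88 without PSC HT 3, when the groups no longer overlapped. Without PSC HT 1, the lowest array, it was -0.72.

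The membrane protein genes completed the set. Lrrn4, a leucine-rich repeat protein of neurons and mesothelium (probe at chr2:132694490-132694549, mm9), read -1.29, -0.50 and -0.60 in PSC HT, against 1.01, 1.69 and 1.56 in PSC WT (difference -2.21 ± 0.27). Gpm6a, a proteolipid family glycoprotein that shapes membrane protrusions (probe at chr8:56145539-56145598, mm9), read -2.16, -1.36 and -1.40 in PSC HT, against -0.08, 0.59 and 0.39 in PSC WT (difference -1.94 ± 0.27). The groups did not overlap in either gene, and in both array 1 was the lowest array of each genotype.

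Within each genotype nearly all of the 8 genes were lowest on array 1. The share of all genes that were lowest there was not counted, so nothing particular to the 8 is read from this. Over all 20851 genes tested, the deviations of PSC HT 1 and PSC WT 1 from their group means correlated at r = 0.195. Same-numbered arrays 2 and 3 gave r = 0.027 and -0.107. Differently numbered pairs ran from -0.304 to 0.355, the highest being PSC HT 2 with PSC WT 3, so 0.195 does not set array 1 apart. PSC WT 1 was the lowest PSC WT array for 8 of 8 genes, by 0.08 to 0.64 log2 units below the mean of PSC WT 2 and 3. PSC HT 1 was the lowest PSC HT array for 7 of 8 genes, Bnc1 being the exception at 0.19 above the mean of PSC HT 2 and 3. Averaged over the 8 genes after centring each on its mean, the arrays stood at -1.38, -0.87 and -0.74 in PSC HT, against 0.71, 1.18 and 1.09 in PSC WT. Every PSC HT mean was thus below every PSC WT mean. By the barcodes in the file headers the arrays lay on 2 slides, with PSC HT 1, PSC HT 3 and PSC WT 1 on slide 1. PSC HT 2, PSC WT 2 and PSC WT 3 lay on slide 2. In PSC WT the lowest array was the only 1 on slide 1, so slide and array cannot be told apart there. Within slide 1 the median difference over the 8 genes was -1.91, and within slide 2 it was -2.14. On slide 1 the spike-in slope was 1.05 and 1.06 for PSC HT, against 0.93 for PSC WT. Slope and genotype cannot be told apart there. On slide 2 it was 0.90 on PSC HT 2, against 0.91 on PSC WT 2 and PSC WT 3.

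**Figure D2:**
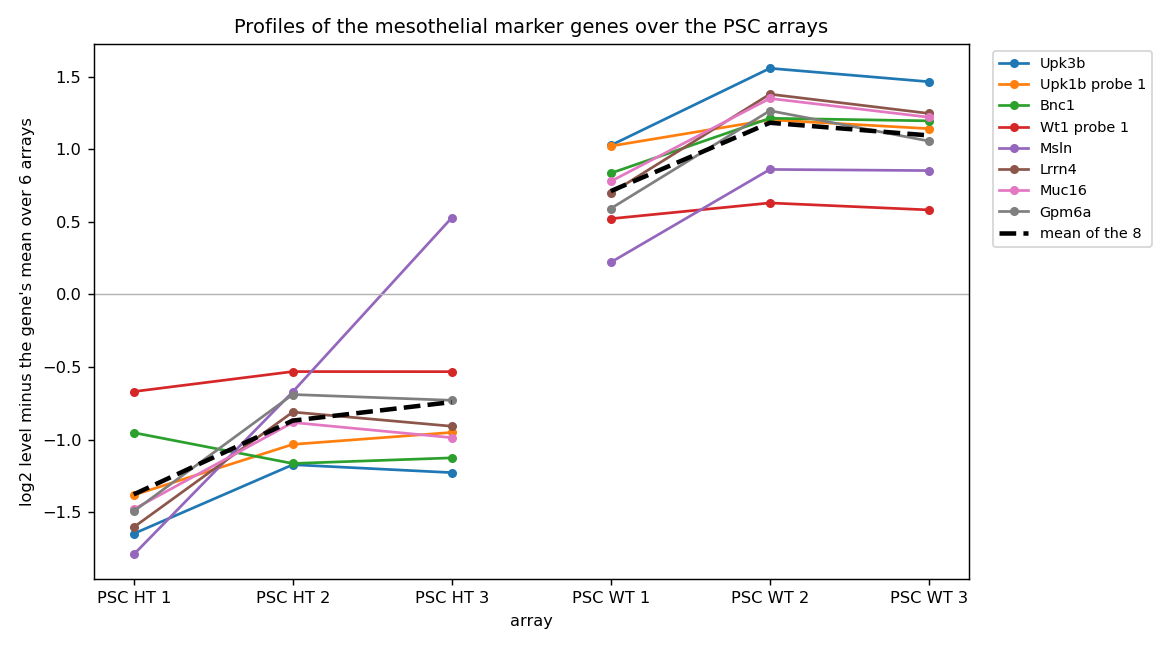
Each line plots 1 gene on the 6 PSC arrays as its log2 level minus its own mean over those arrays, and the dashed line is the mean of the 8 genes; lines join points of 1 gene and imply no order of arrays. Array 1 is the lowest of its genotype for nearly all genes, and Msln on PSC HT 3 leaves the other PSC HT values.

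Macrophage transcripts ran the other way over the same arrays. The summed linear level of 14 macrophage markers, all well above background on every PSC array, was 193, 75.1 and 75.8 in PSC HT, against 31.1, 17.7 and 16.3 in PSC WT, so array 1 was the highest of its genotype. In PSC HT, 12 of the 14 rose by limma's adjusted p of 0.05 (612 or 2.94% of all genes rose, and the list median was 2.66), among them C1qa (3.04 ± 0.58) and Tyrobp (2.88 ± 0.54), genes of the complement and of myeloid signalling. Leaving out PSC HT 3 left 1 of these calls, PSC HT 2 left 4, PSC WT 1 left 6, either PSC WT 2 or PSC WT 3 left 0, and 12 passed without PSC HT 1. With slide as a block 6 passed, and with replicate number as a block 12. Cd53 had the smallest difference of the 14, 0.47 ± 0.42, and did not pass (adjusted p = 0.600, limma). Of the endothelial markers, 7 of 8 tested fell in PSC HT (4.8% of all genes fell), with a list median of -1.71 and 5 to 7 calls on leaving out 1 array at a time, while 3 of 12 listed (Tek, Tie1 and Erg) were not well above background on any PSC array. Emcn, the endothelial sialomucin endomucin, fell by 2.95 ± 0.15 log2 units (adjusted p = 0.000762, n = 3 arrays each). Cdh5 fell by 2.86 ± 0.20 (adjusted p = 0.00119) but was not well above background on any PSC HT array. Pecam1, at the other end of the 8 tested, differed by -0.28 ± 0.19 and did not pass (adjusted p = 0.456, limma). The Emcn difference was smaller with normexp background correction (-1.80) and in the deposited series matrix (-1.82). The summed level of the endothelial list was 2.33 to 2.77 in PSC HT, against 4.71 to 4.95 in PSC WT. What part these cell types had in the values of the 8 genes was not tested.

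Of 14 genes of activated stellate cells and fibroblasts tested, 0 fell and 1 rose in PSC HT. Over all genes 4.8% fell and 2.94% rose. The 1 that rose was Postn, a matrix protein of activated fibroblasts (0.56 ± 0.07, adjusted p = 0.00731). The list median was 0.07, and the summed level of the list was 1502 to 1583 in PSC HT, against 1252 to 1733 in PSC WT. At an unadjusted p under 0.05 by limma, 1 of the 14 was lower and 4 were higher, where 22.2% of all genes passed in either direction.

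Other mesothelial genes fell in part. Of 29 listed, 23 were tested, 8 fell and 1 rose in PSC HT, against 4.8% of all genes that fell and 2.94% that rose, and the median of the 23 was -0.30. The lists were written with earlier results of these data known, so their direction is not independent evidence. Leaving out 1 array at a time gave 6 to 10 that fell and 0 to 2 that rose; the block for replicate number gave 6 and 2, and without PSC HT 3 the counts were 10 of 24 and 0.

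Among 8 regulators of mesothelial and mesenchymal identity, 7 were tested, 4 fell and 1 rose. Gata4, a zinc finger factor of the visceral mesoderm, read -4.61, -4.94 and -4.30 in PSC HT, against -1.77, -1.81 and -1.72 in PSC WT (difference -2.85 ± 0.16, adjusted p = 0.000846, limma). Gata6, its relative, fell by 1.58 ± 0.08 (adjusted p = 0.000816). The groups did not overlap in either gene. The size for Gata4 depended on the handling of background: it was -1.59 with normexp background correction and -1.61 in the deposited series matrix. Aldh1a2, an enzyme that makes retinoic acid, fell by 0.86 ± 0.12, and the signalling gene Wnt4 fell by 0.70 ± 0.11. These last 2 were singled out after their values were seen. Wnt4 lost its call in the fit with replicate number as a block (adjusted p = 0.0566) and on leaving out PSC HT 2, PSC WT 2 or PSC WT 3. Tcf21, a helix-loop-helix factor of mesenchymal cells, rose by 0.64 ± 0.11 (adjusted p = 0.0232), but did not pass without any 1 of 5 arrays, all but PSC HT 1. Tbx18, a T-box factor of the epicardium, differed by 0.19 (adjusted p = 0.234).

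Among 13 surface and secreted proteins, 9 were tested, 2 fell and 0 rose. Rspo1, a secreted enhancer of Wnt signalling, read 0.28, 0.93 and 0.97 in PSC HT, against 2.79, 3.33 and 3.40 in PSC WT (difference -2.45 ± 0.24, adjusted p = 0.00309). Its array 1 was the lowest in each genotype, as for 7 of the 8 genes. Anxa8, an annexin, fell by 0.95 ± 0.19 (adjusted p = 0.0355); it did not pass with slide or replicate number as a block, nor without any 1 array other than PSC HT 3. Slpi, a secreted protease inhibitor, differed by 0.69 (adjusted p = 0.0600) and Ildr2 by 0.18 (adjusted p = 0.295). Calb2, calretinin, a standard protein marker of human mesothelium, was not well above background on any PSC array.

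Among 8 genes of the epithelial side of mesothelial cells, 7 were tested, 2 fell and 0 rose. Ezr, ezrin, which anchors microvilli to actin, read 2.15, 2.52 and 2.72 in PSC HT, against 4.34, 4.62 and 4.69 in PSC WT (difference -2.09 ± 0.17, adjusted p = 0.00172). Cdh3, P-cadherin, fell by 1.04 ± 0.09 (adjusted p = 0.00174). The keratin values depended on PSC HT 3. Krt18 read 1.82, 2.02 and 3.85 in PSC HT, against 3.33, 3.17 and 3.16 in PSC WT, so that PSC HT 1 and 2 lay below and PSC HT 3 above all PSC WT arrays. Its difference was -0.65 (adjusted p = 0.538) with all arrays and -1.30 (adjusted p = 0.00617) without PSC HT 3. Krt19 differed by 0.24 (adjusted p = 0.881), and by -0.51 (adjusted p = 0.249) without PSC HT 3, and Krt8 differed by -0.30 (adjusted p = 0.744), and by -0.80 (adjusted p = 0.0129) without PSC HT 3. Krt18 was singled out after its values were seen.

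Relatives of the 8 genes did not pass the test in either direction. Of 10 paralogues, 7 were tested and 0 fell or rose by limma, where 4.8% of all genes fell and 2.94% rose. Their median was 0.02. At an unadjusted p under 0.05 there were 2 lower and 2 higher, against the same 22.2% of all genes. Upk3bl, the Upk3b-like gene, read -6.57, -5.87 and -5.48 in PSC HT, against -4.88, -5.19 and -5.27 in PSC WT (difference -0.86, adjusted p = 0.131), with none of the PSC HT readings well above background. Mslnl, the mesothelin-like gene, differed by -0.30 (adjusted p = 0.364) and Gpm6b, the relative of Gpm6a, by 0.49 (adjusted p = 0.0537).

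**Figure D3:**
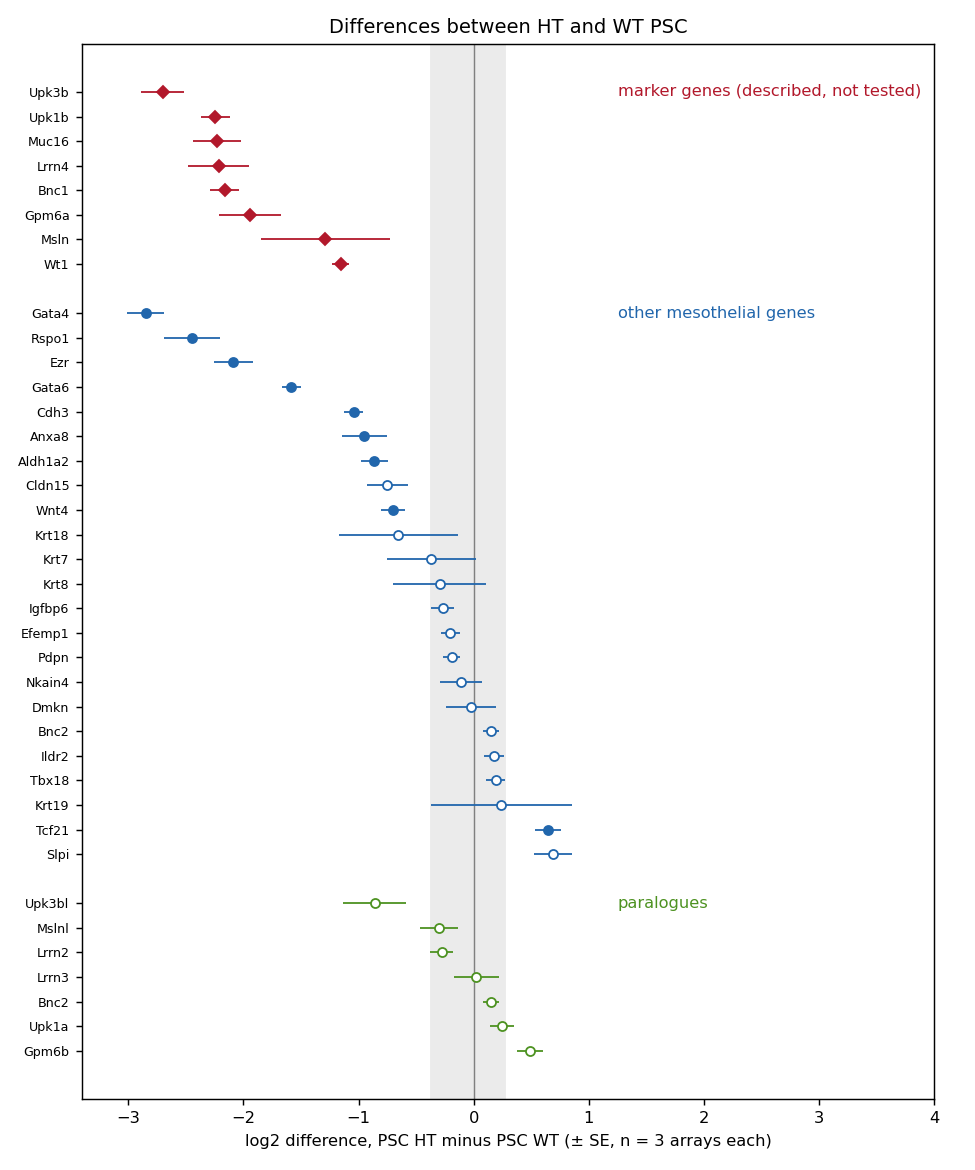
Points are log2 differences of PSC HT minus PSC WT with their SE (n = 3 arrays each): diamonds for the 8 mesothelial marker genes, which were not tested, and circles for other mesothelial genes and for paralogues, filled where limma's adjusted p was under 0.05. The grey band holds the middle 80% of all genes tested; the diamonds lie between -2.70 and -1.16, and other mesothelial genes spread from Gata4 at -2.85 to Slpi at 0.69.

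The 10 named genes whose values over the 6 PSC arrays were most like the mean of the 8 centred profiles were Cd55, Ezr, Bmp4, Robo4, Tmem108, Espn, Gas1, Atp1b1, Shroom2 and Il17re. Likeness was the root mean square difference of centred log2 values, which was 0.06 for Cd55, the complement decay-accelerating factor, and 0.15 for Il17re, an interleukin 17 receptor subunit. The 8 genes themselves lay between 0.11 for Gpm6a and 0.61 for Msln on the same scale. Cd55 was -1.49 to -1.04 in PSC HT, against 0.50 to 0.92 in PSC WT. Bmp4, a secreted growth factor of the TGF-beta family, was 1.06 to 1.46 in PSC HT, against 3.19 to 3.49 in PSC WT. Robo4 is also on the endothelial list and Ezr on the epithelial mesothelial list. Because the 10 genes were chosen by their values on the same arrays, their differences are given here without a test. Ezr and Robo4 also entered the counts of calls above as genes of those lists, Ezr with its adjusted p.

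Msln on PSC HT 3 moved with a set of epithelial transcripts, chosen after their values were seen. On that array Krt19 was 0.95, where the remaining PSC arrays ranged from -1.58 to -0.68, and Muc1, an epithelial mucin, was -2.77, where they ranged from -5.72 to -5.21. Relative to cancer cells in control medium, the PSC HT 3 reading of Cdh1 was 0.85%, that of Krt19 1.59%, that of Muc1 1.09% and that of Msln 3.23%. The other listed epithelial genes of the cancer cells ran from 0.67% for Elf3 to 45.9% for Rab25, with Esrp1 at 6.54%. These are whole readings, and Krt19 and Msln were well above background on the remaining 5 PSC arrays too. Of 9 epithelial genes of the cancer cells, Epcam, Cldn4, Elf3 and Rab25 were not well above background on PSC HT 3, and the summed level of the list was 2.70 there and 0.63 to 0.89 on the remaining PSC arrays. Of the 9 genes, 6 read higher on PSC HT 3 than on every other PSC array, and 4 of these were well above background there. Cldn4, Rab25 and Esrp1, a splicing factor of epithelia that was well above background on all PSC arrays, lay within the range of the others, Esrp1 at -3.56 against -3.93 to -3.17. Of 11 acinar and endocrine genes, 2 read higher on PSC HT 3 than on every other PSC array, 8 lay within their range and 1 below it. The 2 were Cela1, at 1.565 against at most 1.557, and Cpa1. Cpa1, a digestive enzyme of acinar cells, was -1.32 on PSC HT 3 and -7.17 to -5.98 on the remaining PSC arrays, and was -7.82 to -3.05 in cancer cells in control medium, where 1 of 3 arrays was well above background. The part of these transcripts in the Msln reading was not tested. The other 7 genes differed between PSC HT 3 and PSC HT 2 by -0.10 to 0.08 log2 units, whereas Msln differed by 1.20.

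**Figure D4:**
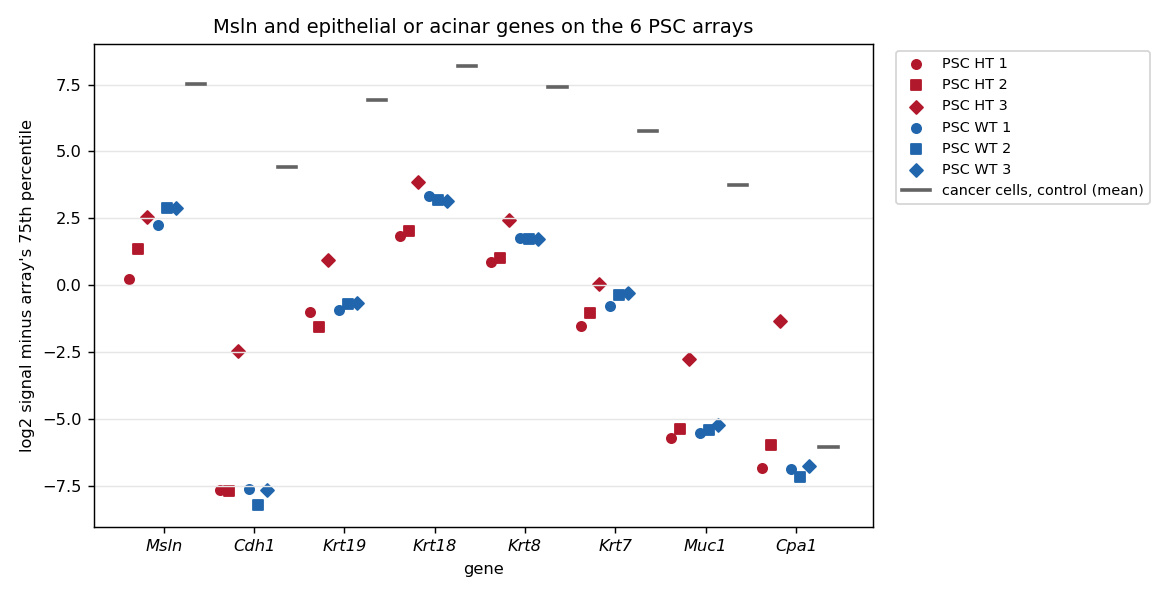
For Msln and 7 epithelial or acinar genes, points are the log2 signal minus the array's 75th percentile on the 6 PSC arrays, by genotype and replicate number, and the grey bar is the mean of cancer cells in control medium; the genes were chosen after their values were seen. The diamond of PSC HT 3 lies above PSC HT 1 and 2 for each of the 8 genes shown, with Cdh1 at -2.45 against -8.22 to -7.61 on the other 5 arrays.

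Across cell types the question was whether cancer cells carry these transcripts, on arrays that took no part in choosing the genes, although the PSC arrays set against them did. Msln separated from the other 7. It read 7.38 to 7.60 in PSC HT medium, 7.56 to 7.63 in PSC WT medium and 7.29 to 7.66 in control medium. Upk3b, Upk1b, Bnc1, Lrrn4 and Gpm6a were not well above background on any of the 9 cancer cell arrays. Muc16 was above background on 1 of 9, the third array in PSC HT medium, at -4.16. Wt1 was below it on all 9 by the brighter probe, whereas the second probe was weakly above background on all 9, at -5.11 to -4.17.

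In both genotypes 7 of the 8 genes were higher in PSC than in cancer cells in control medium, and Msln was lower. In PSC HT, 36.1% of 21942 genes tested were higher than in these cancer cells and 37.1% lower, and in PSC WT 37% were higher and 36.2% lower, so a difference between the cell types was common. By the probe that stood for each gene, the cancer cell readings of the 7 genes are bounds, so folds are at least the values given. These genes entered the comparison through the PSC arrays alone, where they are high and by which they were proposed, so their folds are a description without a test. Wt1 was at least 251-fold higher in PSC HT and at least 559-fold higher in PSC WT than in control cancer cells by its brighter probe. By its second probe, which was measured in both cell types, it was 8.75-fold higher in PSC HT and 24.1-fold higher in PSC WT, so the 2 probes disagree on the size. Upk1b was at least 152-fold higher in PSC HT and at least 720-fold higher in PSC WT. Muc16 had the lowest bounds, at least 7.62-fold higher in PSC HT and at least 35.8-fold higher in PSC WT. For Upk3b the bounds were 42.0-fold in PSC HT and 272-fold in PSC WT. The PSC HT reading of each thus stayed above the cancer cells although it lay below PSC WT.

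Msln differed from control cancer cells by -6.13 ± 0.50 log2 units in PSC HT (adjusted p = 6.85e-06) and by -4.84 ± 0.50 in PSC WT (adjusted p = 3.19e-05). That is 69.9-fold lower in PSC HT and 28.6-fold lower in PSC WT. Without PSC HT 3 the PSC HT difference was -6.71. Mesothelin is also known as an antigen of pancreatic ductal cancers.

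By the probe that stood for each gene, Msln was the only 1 of the 8 that could be tested for a response of the cancer cells to conditioned medium, and it did not pass the test in any of the 3 comparisons. In PSC HT medium Msln differed from control medium by 0.0035 ± 0.11 (adjusted p = 0.991), and in PSC WT medium by 0.09 ± 0.11 (adjusted p = 0.654). Between PSC HT medium and PSC WT medium it differed by -0.09 ± 0.11 (adjusted p = 0.991). Of 19637 genes tested, 5.46% passed in PSC HT medium and 5.95% in PSC WT medium against control, and 0 passed between both media by limma, where 960 had an unadjusted p under 0.05. Both comparisons with control share the control arrays. The second Wt1 probe averaged -4.52 in PSC HT medium, -4.69 in PSC WT medium and -4.93 in control medium, and did not pass in a fit on second brightest probes (differences from control of 0.40 and 0.23, each ± 0.20, adjusted p = 0.374 and 0.599, limma). For the other 6 genes, and for the brighter Wt1 probe, a change smaller than the distance from background to detection could not be seen on these arrays. Of the 29 other mesothelial genes, 21 were tested in the cancer cells: in PSC HT medium 2 rose and 2 fell (2.96% and 2.5% of all genes), and in PSC WT medium 2 rose and 4 fell (2.8% and 3.15%).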

How the data were processed

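Gene expression was measured on 15 one-colour Agilent arrays. Per the file headers, the intensity of each spot was background subtracted and detrended by Feature Extraction 10.7.3.1, and no scaling between arrays was applied. The deposited series matrix is on a log2 scale, with column medians of 6.95 in PSC and 6.90 in cancer cells and r = 0.995 to 0.999 against log2 mean signal. How the authors normalized it is not given in the sources used here, so it was only an alternative within a cell type. The labels state that total RNA was extracted and labelled through double-stranded cDNA.

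The deposited intensity was put on a log2 scale and centred on the 75th percentile of its array. Spots marked as outliers were left out and repeat spots averaged, giving 56605 probes from 59305 spots. RefSeq tables updated gene names: 32994 probes matched by the design's accession, 887 by another accession, 9468 by symbol and 490 by synonym, and 12766 kept their name. The brightest probe over all 15 arrays stood for its gene. Tests were limited to genes whose probe exceeded background, by the software's flag, throughout 1 or more of the groups compared. Probe coordinates are mm9, from the files, and start-site windows are GRCm38.p6. Bounds ("at least N-fold") set the bright group against, per array, the higher of the dim reading and the lowest reading well above background.

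The test was limma 3.58.1 (R 4.3.3; lmFit and eBayes), in separate fits for PSC arrays, for cancer cell arrays and for PSC against control cancer cells, and Benjamini-Hochberg adjustment over all genes tested, at an adjusted p of 0.05. Values after ± are limma's moderated SE unless an SD is named. The precision is limited by 3 arrays per group. The genes, lists and tests were chosen with earlier results of these data known. Genes are named by rule: the 8 marker genes with every probe, up to 4 genes of each other list (the 2 lowest and the 2 highest by difference), the 10 genes most like the 8, and Cdh1, with exceptions stated. One gene of the epithelial list is not reported here and was left out of that list. Clone and predicted names were left out of the 10.

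The procedure was tested on simulated data: for the PSC contrast it called 67.2% of 67 genes changed by 1 log2 unit and 6 of 20651 unchanged genes, and for PSC WT medium 80.6% of 67 and 8 of 19437. The simulated noise was independent between genes and arrays, so these counts do not cover variation that many genes share on an array. Replicate numbers were checked for pairing by correlating deviations from group means. Between WT medium and control all 3 same-numbered pairs correlated (r = 0.205, 0.252 and 0.219), and in no other comparison did all 3 exceed 0.1. Differently numbered arrays of WT medium and control correlated as well: 1 with 3 (r = 0.222), 2 with 1 (0.223) and 3 with 2 (0.210). The remaining pairs had r = -0.455 to -0.421. A shared number alone thus did not set a pair apart. Python 3.11.15 with pandas 2.3.3, numpy 2.4.6 and matplotlib 3.10.9 was used for sequences and plots.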

Additional observations from a re-analysis of the deposited data

How the results depend on the processing

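The median difference of the 8 genes between PSC HT and PSC WT stayed between -2.30 and -1.91 over 18 alternatives: normexp background correction with an offset of 50, quantile scaling, other filters, the second brightest probe, slide or replicate number as a block, the series matrix, each slide alone, each array left out in turn (-2.29 to -2.01) and, added after seeing the data, Msln left out. With the replicate block it was -2.19, the main value, because that block cannot change the difference when each number occurs once per genotype. The filters cannot change it for a gene that stays in the fit. For the 8 genes singly, 112 of 112 alternative values were negative. As the genes were proposed from this contrast on the same arrays, that count is a description and no evidence of stability. Against control cancer cells, where a gene had to be well above background on every array of the fit only Msln was left to test by the brightest probe, so 1 gene passed in each genotype, against 8. For the other 7 the filter in use fixed the outcome, and their calls under the alternatives say nothing of stability. Msln in PSC HT medium minus control changed sign without PSC HT medium replicate 1 or 2 or without control replicate 3 (-0.11 to 0.079 over 6 fits), and in PSC WT medium minus control without control replicate 3 (-0.017 to 0.17), with no call in any of them. Krt19 in PSC HT minus PSC WT changed sign without PSC HT 3 (-0.51 to 0.76 over 6 fits). Without a filter on dim probes 398 genes passed between PSC HT and PSC WT, against 1613, and leaving out 1 array gave 555 to 1278. For PSC HT medium against control the unfiltered count was 333 against 1072, the second brightest probe gave 621 and leaving out 1 array gave 494 to 863. For PSC WT medium against control these were 467 against 1169, 696, and 577 to 1001. Between both media 0 to 6 genes passed. Without the filter Anxa8, Aldh1a2, Wnt4, Tcf21, Postn and C1qa no longer passed (adjusted p = 0.0644 to 0.143 by limma), where more genes were adjusted for. With the replicate block 1138 genes passed between PSC HT and PSC WT and 964 for PSC WT medium against control. For Msln no call changed with that block in the comparisons where it was tested. The other 7 genes had no test whose outcome was open, so nothing is read from their calls. Same-numbered PSC arrays were not the best correlated throughout, so the numbers were not taken to pair them. Signal near background limits 7 of the 8 genes in cancer cells to bounds by the brightest probe; Wt1 is measured there by its second probe.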

Other observations

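Muc16 was well above background on 1 of 9 cancer cell arrays, the third in PSC HT medium, where its signal was 81.4 in scanner units. The other 2 arrays in PSC HT medium had 5.84 and 6.63. The lowest reading well above background, relative to the 75th percentile, was -4.73 on PSC HT 3 and -6.01 to -5.55 on the other 5 PSC arrays. Of 6 Schwann cell genes tested between PSC HT and PSC WT, 2 fell and 1 rose, where 4.8% of all genes fell and 2.94% rose. Ngfr, the low-affinity nerve growth factor receptor that stellate cells also express, rose by 1.43 ± 0.09 log2 units (adjusted p = 0.000867, limma, n = 3 arrays each), and Mbp, myelin basic protein, fell by 1.59 ± 0.14 (adjusted p = 0.00222). Of 4 acinar and endocrine genes tested, 0 passed and 1 had an unadjusted p under 0.05, as did 22.2% of all genes.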
